A study of Mus musculus with 189 samples.

Results

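Among the basophil-mast cell progenitors (BMCPs) sorted from the mouse peritoneal cavity, 60 single cells carried high messenger RNA for granzyme B (Gzmb), and 14 of these 60 also carried Mrgprb1. The cells were chosen by their measured values. A BMCP library was taken when it held at least 100000 reads on mouse genes and Gzmb at 100 CPM or more, where CPM is the reads of a gene per 1000000 reads on all mouse genes of that cell. The 60 cells were then split at 100 CPM of Mrgprb1 into 14 cells with both genes, here called double-positive cells, and 46 cells with Gzmb alone, here called Gzmb-only cells. They were 60 of 93 BMCPs above the read minimum, of 95 BMCPs sequenced and of 189 cells in all. For comparison, 28 BMCPs with Mrgprb1 at 100 CPM and Gzmb below it are called Mrgprb1-only cells, and 94 mature mast cells were measured alongside.

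All cells came from 4 female C57BL/6 mice, for which the labels name no treatment and no genetic change. Live cells that lacked lineage markers and stained for c-Kit and for FcεRI, the high-affinity IgE receptor, were sorted by integrin β7 and side scatter. The BMCP gate took cells bright for integrin β7 with low side scatter, and the mature gate took cells dim for integrin β7 with high side scatter. The labels tie no cell to a mouse. With mice not distinguishable, each set of cells counts as 1 sample. The differences below come without a test and describe these cells only.

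Granzyme B is a serine protease best known from the granules of cytotoxic lymphocytes, and its gene is also transcribed in cells of the mast cell lineage. The Mas-related G-protein-coupled receptors (Mrgpr) include Mrgprb2, through which mouse connective tissue mast cells respond to cationic peptides and drugs without IgE. Mature connective tissue mast cells store chymases, tryptases and carboxypeptidase A3 bound to the serglycin proteoglycan in their granules, whereas the protease Mcpt8 is the classical marker of mouse basophils.

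The values that made the split were far apart. Gzmb ranged from 948 to 8279 CPM in the double-positive cells, with a median of 4042 CPM, and from 543 to 22013 CPM in the Gzmb-only cells, with a median of 7849 CPM. The double-positive range lay within that of the Gzmb-only cells. The BMCP just inside the Gzmb limit had 543 CPM and the one just outside had 27.9 CPM. In the Mrgprb1-only cells Gzmb did not exceed 10.2 CPM, and in the mature mast cells it did not exceed 15.9 CPM. For Mrgprb1, the cell just inside the limit had 191 CPM (271 reads) and the cell just outside had 13.8 CPM (13 reads). The 60 cells spread over the numbers in the labels: 8 double-positive and 25 Gzmb-only cells were numbered 1 to 48, and 6 and 21 were numbered 49 to 95.

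Transcripts of the 3 proteins used to sort the cells were present in most but not all cells of both sets. Kit was at 100 CPM or more, the level counted here as present, in 13 of 14 double-positive and 42 of 46 Gzmb-only cells. Fcer1a, the ligand-binding subunit of FcεRI, was present in 13 of 14 and 43 of 46 cells, with pooled levels of 2646 and 2735 CPM. A pooled level is the summed reads of a gene over the summed reads on mouse genes of the set. Itgb7, which encodes the integrin β7 chain used in the gate, ranged from 1.21 through a median of 363 to 5716 CPM in the double-positive cells and from 1.06 through 1410 to 6519 CPM in the Gzmb-only cells. Presence was counted in 9 of 14 and 39 of 46 cells, against 28 of 28 Mrgprb1-only cells and 90 of 94 mature mast cells.

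The median number of reads on mouse genes was 1398991 in the double-positive cells and 1187182.5 in the Gzmb-only cells. Reads per synthetic ERCC spike-in read, a measure of RNA content if every well received the same spike-in, had medians of 472 and 506. The ranges were 183 to 936 and 24.7 to 1543, and BMCP 55, a Gzmb-only cell, held the lowest value. Both medians lay below those of the Mrgprb1-only cells (790) and of the mature mast cells (939). With every cell thinned to 100000 reads, the double-positive cells had a median of 2247.5 genes with a read (range 1791 to 2528) and the Gzmb-only cells 2431 (range 1056 to 4055). Without thinning the medians were 3432.5 and 3637.5 genes. The double-positive cells thus had more reads but no more genes per cell, and the part of depth in the differences below was not tested.

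**Figure D1:**
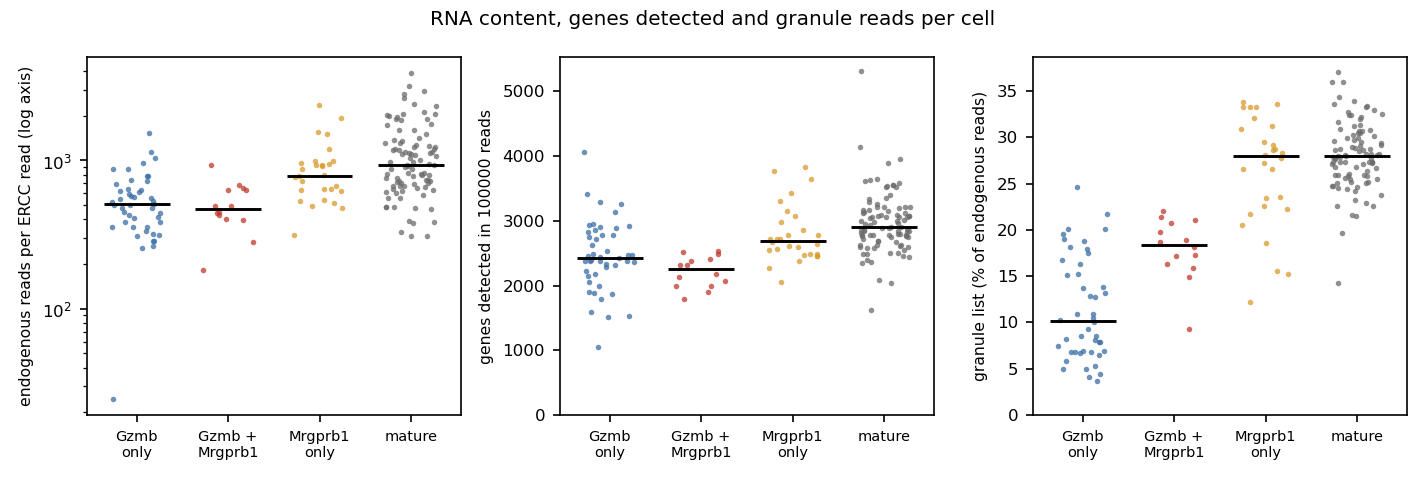
Reads on mouse genes per ERCC read (log axis), genes detected after thinning to 100000 reads, and the share of reads on 10 granule genes, per cell; points are cells and bars are medians of the 4 sets (46, 14, 28 and 94 cells). The double-positive cells sit near the Gzmb-only cells for the first 2 measures, with medians of 472 and 506 reads per ERCC read, and between the Gzmb-only and mature cells for the third, with a median of 18.4%.

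The largest difference in the share of cells was in Mcpt8, the basophil protease. Mcpt8 ranged from 0.573 through a median of 3.53 to 1066 CPM in the double-positive cells and from 1.07 through 2369 to 36263 CPM in the Gzmb-only cells. It was present in 2 of 14 double-positive cells (14.3%, 95% exact interval 1.78 to 42.8) and in 35 of 46 Gzmb-only cells (76.1%, 61.2 to 87.4). The pooled level was 109.9 CPM (exact Poisson interval 105.3 to 114.7) against 6827 CPM (6806 to 6848). These intervals, like the others here, cover counting error only, and reads of a molecule copied by PCR are not independent. The log2 ratio of the pools, with 1 CPM added to each, was -5.94, and without BMCP 49, which held 1513 of the 2103 double-positive reads, it was -7.64. The double-positive cells were close to the Mrgprb1-only and mature cells in this gene, where the pooled levels were 28.3 and 30.2 CPM and 2 of 28 and 6 of 94 cells passed 100 CPM.

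Mcpt8 belongs to a list of 9 genes that earlier results on these same cells had linked to the early side of the progenitors, so the direction of the list is no independent evidence. Of the 9 genes, 8 were at least 2-fold lower in the double-positive pool, and 4 were present in a share of cells at least 30 points smaller. Across 10094 genes that reached 5 CPM in a pool, 37.4% were at least 2-fold lower, 19% were at least 2-fold higher, 0.743% had a share at least 30 points smaller and 0.476% a share at least 30 points larger. The 9 genes had a median log2 ratio of -1.72, beside -0.38 over all 10094 genes. The median of all genes was -0.94 when the cell with most reads of each gene was left out of both pools. Leaving out that cell takes a larger part of the 14 cells than of the 46. The part of set size in these ratios was not tested, and shares of cells are also given.

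Nkg7, a granule membrane protein of cytotoxic cells, ranged from 0.606 through 2.12 to 1517 CPM in the double-positive cells and from 0 through 1277 to 5664 CPM in the Gzmb-only cells. Cells with Nkg7 numbered 4 of 14 (28.6%, 8.39 to 58.1) and 35 of 46 (76.1%, 61.2 to 87.4), with a log2 ratio of -2.82, or -3.81 without BMCP 49. Scin, which encodes the actin-severing protein scinderin, ranged from 0 through 52.6 to 1087 CPM and from 0 through 935 to 6508 CPM. Cells with Scin numbered 7 of 14 (50%, 23 to 77) and 37 of 46 cells (80.4%, 66.1 to 90.6). Its log2 ratio was -1.80. Lag3, an inhibitory receptor of the immunoglobulin superfamily, differed least: it was present in 6 of 14 and 33 of 46 cells, with pooled levels of 563 and 1064 CPM and a log2 ratio of -0.92. For all of these genes the ranges of the 2 sets overlapped.

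Scin and Lag3 were near 0 in the other cells with Mrgprb1. In the Mrgprb1-only cells Scin had a pooled level of 0.268 CPM and did not exceed 1.97 CPM in any of 28 cells, and Lag3 had 0.59 CPM and did not exceed 2.53 CPM. In the mature mast cells the pooled levels were 0.421 and 2.00 CPM. The double-positive pool held 331 CPM of Scin and 563 CPM of Lag3. Part of the double-positive set thus shared these 2 transcripts with the Gzmb-only cells while Mcpt8 was below 100 CPM: of the 7 double-positive cells with Scin, BMCP 33 and BMCP 49 had Mcpt8, at 338 and 1066 CPM.

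The other 5 genes of the list were present in smaller shares of the double-positive cells. Itga4, the integrin α4 chain, was present in 3 of 14 and 27 of 46 cells, at 114 and 377 CPM pooled. Acap1, a protein of integrin recycling, was present in 4 of 14 and 26 of 46 cells. Napsa, an aspartic protease, was present in 3 of 14 and 21 of 46 cells, Maf, a transcription factor, in 3 of 14 and 17 of 46 cells, and Abhd15 in 1 of 14 and 13 of 46 cells. Their log2 ratios lay between -2.06 for Maf and -1.11 for Napsa. Napsa was the exception in stability: among cells numbered 49 to 95 alone its ratio was 1.08.

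**Figure D2:**
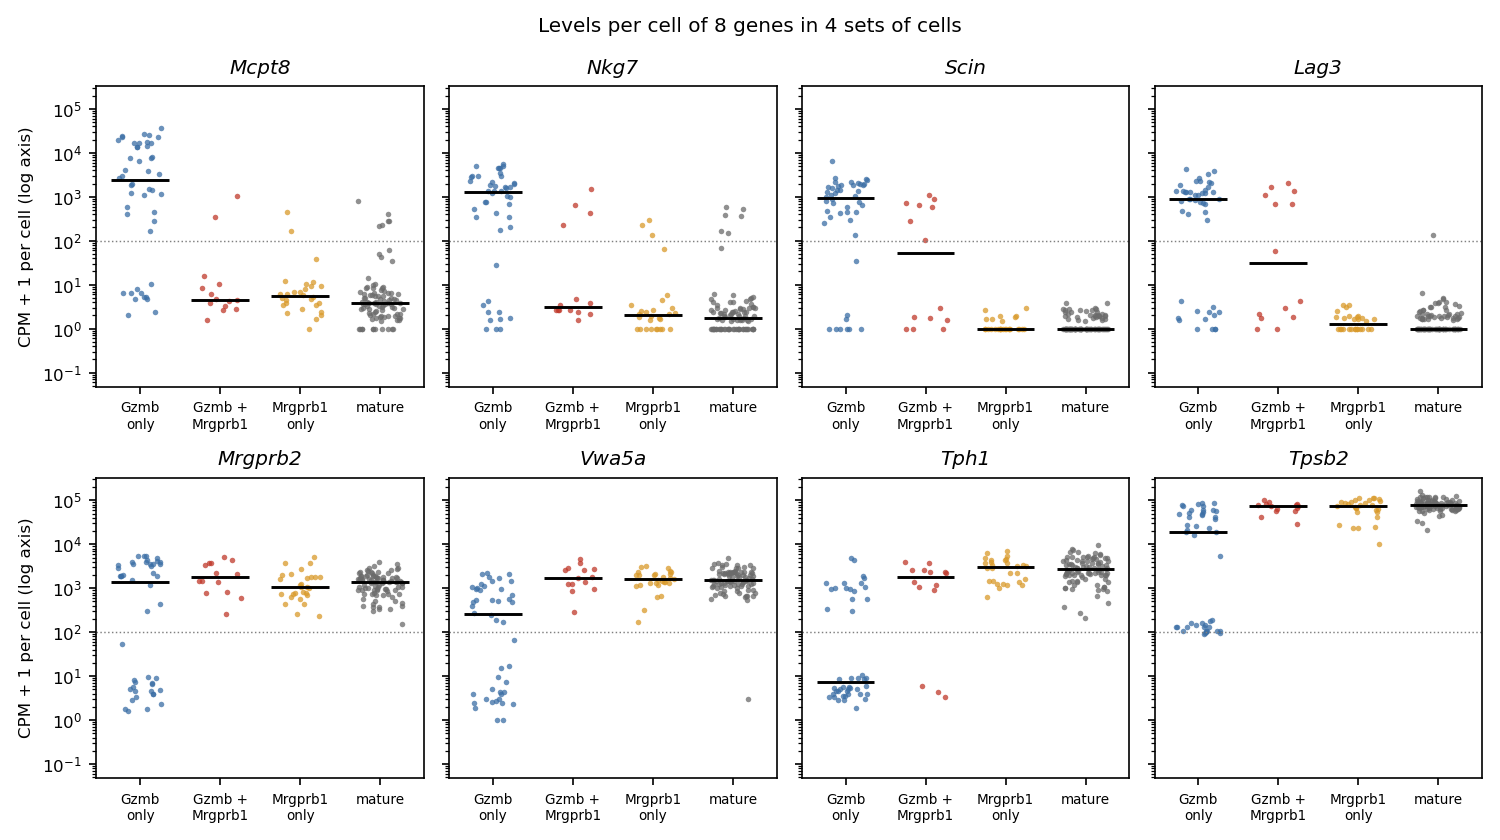
CPM + 1 per cell on a log axis for 8 genes in the Gzmb-only (46), double-positive (14), Mrgprb1-only (28) and mature (94) cells; points are cells, black bars medians, and the dotted line marks 100 CPM. Mcpt8 and Nkg7 are high in most Gzmb-only cells and low in most double-positive cells, Scin and Lag3 split the double-positive cells, and Mrgprb2, Vwa5a and Tpsb2 are high in all 14 double-positive cells and split the Gzmb-only cells.

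Counted per cell, the double-positive set had fewer early genes than the Gzmb-only set and more than the Mrgprb1-only set. Of the 9 genes, a double-positive cell had 0 to 5 present, with a median of 2.5, and a Gzmb-only cell 0 to 8, with a median of 6. At least 3 genes were present in 7 of 14 double-positive and 39 of 46 Gzmb-only cells, and at least 6 in 0 of 14 and 27 of 46. Mrgprb1-only and mature cells had at most 2 each.

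**Figure D3:**
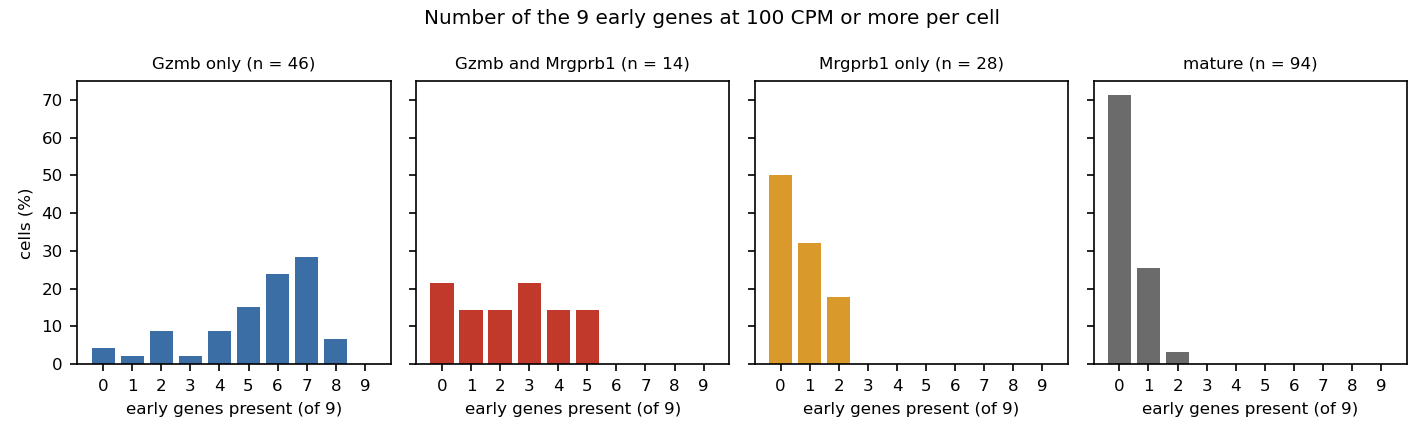
Share of cells (%) by the number of the 9 early genes at 100 CPM or more, in Gzmb-only, double-positive, Mrgprb1-only and mature cells. The double-positive cells spread over 0 to 5 genes, the Gzmb-only cells peak at 7, and 0 is the most frequent number in the Mrgprb1-only and mature cells.

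The 14 cells were not alike. BMCP 33 and BMCP 29 each had 5 early genes, and BMCP 33 carried Nkg7 at 416 CPM and Mcpt8 at 338 CPM together with 103216 CPM of Tpsb2. BMCP 49, which lay just inside the Mrgprb1 limit, had the highest Nkg7 (1517 CPM) and Mcpt8 (1066 CPM) of the set and also 3910.5 CPM of the mature mast cell protease Mcpt4. BMCP 43, BMCP 30 and BMCP 91 had none of the 9 early genes, with Gzmb at 4504, 6287 and 3872 CPM. BMCP 20 had the lowest Gzmb of the set, 948 CPM, with 13755 CPM of Mcpt4 and 1734 CPM of Tpsab1.

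**Figure D4:**
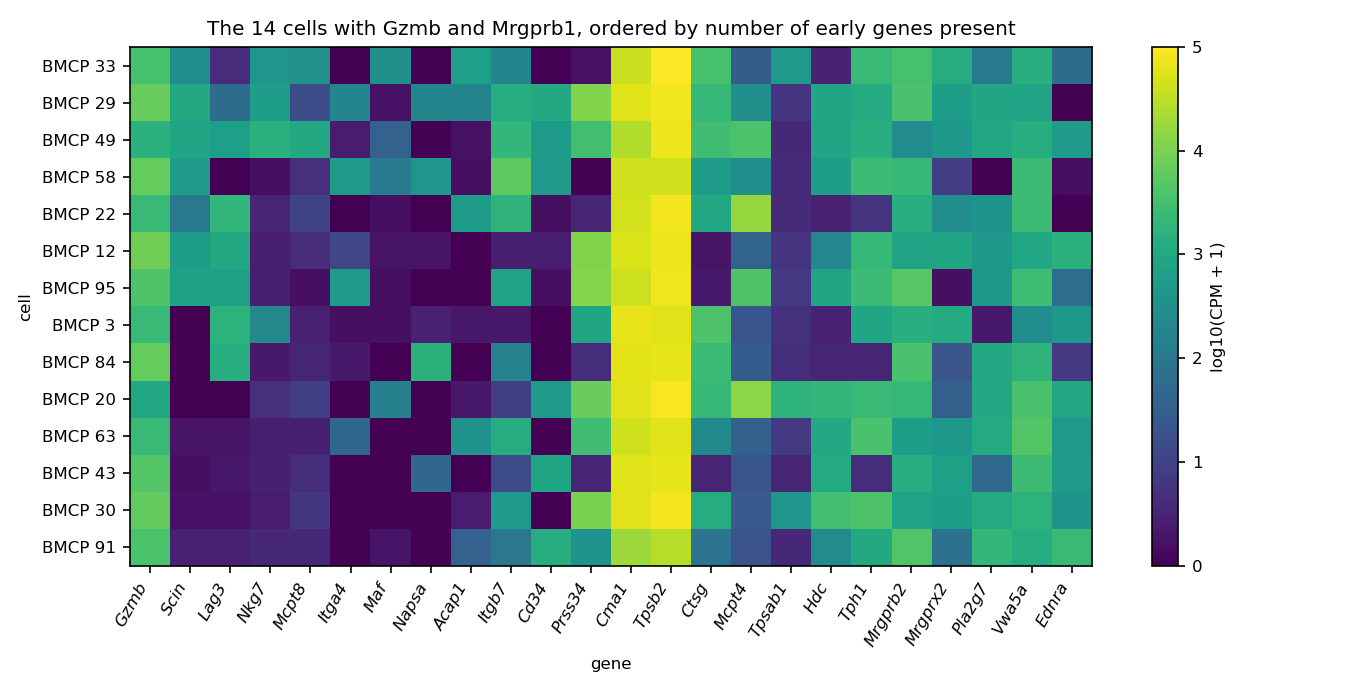
Levels, as log10(CPM + 1), of 23 genes and Gzmb in the 14 double-positive cells, with 1 cell per row in order of the number of early genes present. The panel holds 8 of the 9 early genes, without Abhd15. The number of early genes runs from 5 genes in BMCP 33 and BMCP 29 to 0 in BMCP 43, BMCP 30 and BMCP 91, whereas Cma1, Tpsb2, Mrgprb2 and Vwa5a are high in every row.

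Outside the list, the largest lower ratios included genes nearly absent from the double-positive cells. Plac8, a small cysteine-rich protein of many immune progenitors, was present in 0 of 14 double-positive cells (0 to 23.2%) and 22 of 46 Gzmb-only cells (47.8%, 32.9 to 63.1). Its highest value in a double-positive cell was 1.88 CPM, and the pools had 0.418 and 331 CPM, a log2 ratio of -7.87. Atp8b4, a putative phospholipid flippase, was present in 0 of 14 and 18 of 46 cells, with a log2 ratio of -6.95. Both were also absent from the Mrgprb1-only and mature cells at 100 CPM. Npl, an enzyme that cleaves sialic acid, was present in 3 of 14 and 31 of 46 cells, and Btk, a tyrosine kinase of antigen receptor signalling, in 2 of 14 and 20 of 46. Btk differed from Plac8 in the other sets: it was present in 14 of 28 Mrgprb1-only and 55 of 94 mature cells. The other lower genes of this ranking were Pitpnc1, Timm13, Denr, Rgs1, Kmt2d and Ptms, with log2 ratios of -4.05 to -2.55.

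A ranking by the difference in share of cells, added after the values were seen, put Mcpt8 first among the lower genes (-61.8 points). It was followed by Sem1, a proteasome component, present in 3 of 14 double-positive and 34 of 46 Gzmb-only cells. Ptprc, which encodes the leukocyte antigen CD45, was present in 3 of 14 and 29 of 46 cells, and Cd69, an early activation antigen, in 1 of 14 and 22 of 46. For Sem1 and Ptprc the double-positive share lay also below the other sets, at 16 of 28 and 51 of 94 cells for Sem1 and 16 of 28 and 58 of 94 for Ptprc. The proteasome subunit Psma6 was present in 1 of 14 and 24 of 46 cells. The remaining genes of this ranking were Plac8, Denr, Nkg7, Npl, Gm15427, Gm16286 and Sh3kbp1, and for Gm15427 the difference was -44.4 points but -25.2 points after thinning.

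In the other direction, every double-positive cell had the receptor Mrgprb2, the tryptase Tpsg1 and Vwa5a, a protein with a von Willebrand factor A domain. Mrgprb2 ranged from 255 through 1791 to 5135 CPM in the double-positive cells and from 0.586 through 1375 to 5543 CPM in the Gzmb-only cells. Each of the 3 genes was present in 14 of 14 double-positive cells (100%, 76.8 to 100) and 26 of 46 Gzmb-only cells (56.5%, 41.1 to 71.1). All 3 were present together in 14 of 14 double-positive, 15 of 46 Gzmb-only, 28 of 28 Mrgprb1-only and 93 of 94 mature cells. In the Gzmb-only set 9 cells had none of them, 11 had 1 and 11 had 2. The pooled ratio says less than the shares for Mrgprb2, with 2226 and 1898 CPM and a log2 ratio of 0.23, which was 0.03 without BMCP 95 and changed sign, to -0.19, among cells numbered 1 to 48. For Vwa5a the pools had 2011 and 573 CPM, a log2 ratio of 1.81, and for Tpsg1 2581 and 1406 CPM, 0.88. Mrgprb1 and Mrgprb2 are related genes, and how reads shared by near-identical genes were counted is not given in the sources used here.

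Mcpt8 and Mrgprb2 together placed each of the 60 cells in 1 of 3 classes. In 20 cells Mcpt8 was present without Mrgprb2, in 17 both were present, and in 23 Mrgprb2 was present without Mcpt8, while no cell lacked both. Mrgprb1 was present in 0 of the 20, 2 of the 17 and 12 of the 23 cells. The median share of reads on the granule genes was 6.78%, 13.2% and 18.2% in the same order. All 20 cells without Mrgprb2 also had Nkg7. Mcpt8 and Mrgprb2 were picked for this count after their values were seen.

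Within the cells that had Mrgprb2, 15 genes were counted in the 14 with Mrgprb1 and the 26 without it. The 15 genes were picked after their values were seen, and the same count was not made over all genes. With 14 and 26 cells the exact intervals of the shares are wide, so overlap does not show like shares. The differences were not tested. Mcpt8 was present in 2 of 14 cells (14.3%, 1.78 to 42.8) and 15 of 26 cells (57.7%, 36.9 to 76.6). Pla2g7 was present in 11 of 14 (78.6%, 49.2 to 95.3) and 8 of 26 cells (30.8%, 14.3 to 51.8), and Prss34 in 9 of 14 and 6 of 26. For Sem1, in 3 of 14 and 19 of 26 cells, the intervals were apart, at 4.66 to 50.8% and 52.2 to 88.4%. Scin, in 7 of 14 and 19 of 26, Lag3, in 6 of 14 and 17 of 26, Tph1, in 11 of 14 and 15 of 26, and Tpsg1, in 14 of 14 and 21 of 26, had widely overlapping intervals (23 to 77 and 52.2 to 88.4% for Scin).

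Several transcripts of mature mast cells were present in more of the double-positive cells. Pla2g7, a secreted enzyme that inactivates platelet-activating factor, ranged from 0 through 688 to 2041 CPM in the double-positive cells and from 0 through 3.17 to 1139 CPM in the Gzmb-only cells. Cells with Pla2g7 numbered 11 of 14 (78.6%, 49.2 to 95.3) and 9 of 46 cells (19.6%, 9.36 to 33.9), a difference of 59 points and a log2 ratio of 2.10. In the Mrgprb1-only and mature cells it was present in 26 of 28 and 94 of 94. Tph1, the rate-limiting enzyme of peripheral serotonin synthesis, was present in 11 of 14 and 17 of 46 cells, with pooled levels of 1737 and 564 CPM, against 2963 CPM in Mrgprb1-only and 3052 CPM in mature cells. Gpr141b, an orphan receptor, was present in 9 of 14 and 11 of 46 cells and in all Mrgprb1-only and mature cells. For these 3 genes the double-positive share lay between those of the Gzmb-only and the mature cells.

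Prss34, a tryptase-like protease known from basophils and mast cells, did not follow that order. It ranged from 0 through 1932 to 12113 CPM in the double-positive cells and from 0.665 through 3.75 to 18464 CPM in the Gzmb-only cells. Cells with Prss34 numbered 9 of 14 (64.3%, 35.1 to 87.2) and 8 of 46 cells (17.4%, 7.82 to 31.4), beside 8 of 28 Mrgprb1-only and 37 of 94 mature cells. The pooled levels were 4111, 851, 1582 and 2899 CPM in these 4 sets. Prss34 and Mcpt8, both used as basophil genes, thus differed in opposite directions between the same cells, with log2 ratios of 2.27 and -5.94. In 1 of 14 double-positive and 4 of 46 Gzmb-only cells both were present.

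Serpinb6a, an intracellular inhibitor of serine proteases, was present in 7 of 14 and 7 of 46 cells (log2 ratio 2.47), and Slc30a2, a vesicular zinc transporter, in 8 of 14 and 8 of 46 (2.09). Other genes named by ratio were Prpf38a, Esyt3, Ep400, Cast, Sra1, Rragc and Psmb7, with log2 ratios of 1.88 to 2.36. Cast, the inhibitor of calpain proteases, was -2.39 among cells numbered 49 to 95 alone. By share, Ifnar2, a chain of the type I interferon receptor, was present in 11 of 14 and 17 of 46 cells, Chst1, a sulfotransferase, in 10 of 14 and 14 of 46, and Gm19585 in 6 of 14 and 1 of 46.

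**Figure D5:**
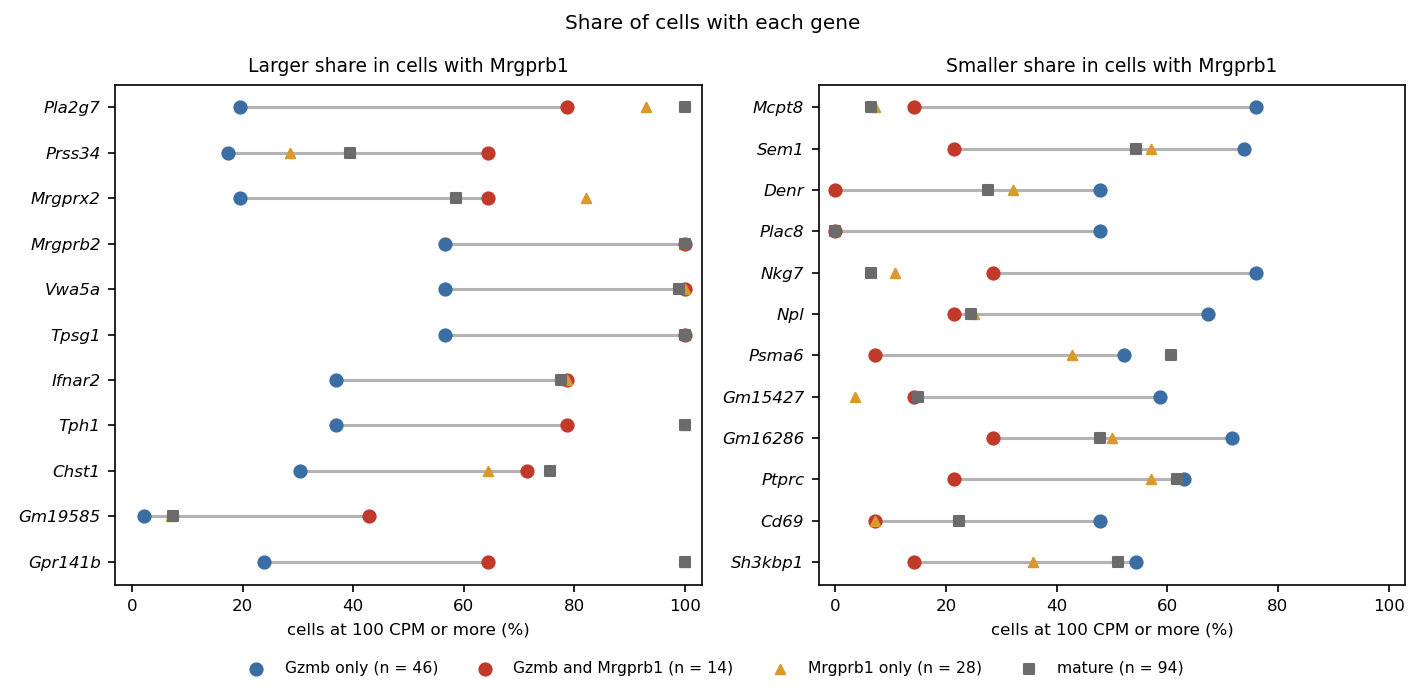
Share of cells (%) at 100 CPM or more for 11 of the 12 genes with the largest positive and the 12 with the largest negative difference between double-positive and Gzmb-only cells, with the Mrgprb1-only and mature cells for comparison. Pla2g7, at 78.6% and 19.6%, and Mcpt8, at 14.3% and 76.1%, stand at the top of the panels.

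The 10 granule genes together took a larger share of reads in the double-positive cells, mostly through the tryptase Tpsb2. They made up 9.31 to 22.0% of reads in a double-positive cell, with a median of 18.4%, and 3.66 to 24.7% in a Gzmb-only cell, with a median of 10.2%, against medians of 28% in both other sets. The pooled difference was 5.87 points, of which Tpsb2 made up 4.10, the chymase Cma1 1.28 and the other 8 genes together 0.496 points. Of these 10 genes 2 were at least 2-fold higher and 0 at least 2-fold lower, beside 19% and 37.4% of all genes, and the median log2 ratio was 0.43. Removing this list from the totals moved the median of all genes from -0.38 to -0.29.

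The tryptase Tpsb2 accounted for the widest contrast among the abundant granule genes. It ranged from 29352 through 74247 to 103216 CPM in the double-positive cells and from 91.4 through 18961 to 88518 CPM in the Gzmb-only cells. The Gzmb-only cells fell on either side of a gap: 20 had 91.4 to 194 CPM and 26 had 5503 CPM or more, so 100 CPM does not separate them. At 1000 CPM, Tpsb2 was present in 14 of 14 and 26 of 46 cells, and in 12 of the 17 cells with both Mcpt8 and Mrgprb2, 5 of the 20 with Mcpt8 alone and 23 of the 23 with Mrgprb2 alone. The pooled double-positive level, 70300.2 CPM, was near the 69378 CPM of the Mrgprb1-only cells. The related tryptase Tpsab1 was present in 3 of 14 and 1 of 46 cells, and in 21 of 28 and 73 of 94 cells of the other sets.

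The chymase Cma1 was high in every cell of the 60, at 18932 to 67009 CPM in the double-positive and 2700 to 80429 CPM in the Gzmb-only cells. Its pooled levels were 47678 and 34914 CPM (log2 ratio 0.45), below the 96232 CPM of the Mrgprb1-only cells. Carboxypeptidase Cpa3 had 49473 and 46505 CPM and the proteoglycan core Srgn 5610 and 5264 CPM, log2 ratios of 0.09 each. For Srgn the sign changed, to -0.16, without the highest cell of each pool. Hdc, the histamine-forming decarboxylase, was present in 10 of 14 and 23 of 46 cells, as was the protease Ctsg. The vesicular monoamine transporter Slc18a2 (-0.08) and Ndst2 (-0.33), an enzyme of heparin sulfation, had ratios that changed sign under other scalings or summaries.

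Mcpt4, the chymase of connective tissue mast cells, ranged from 18 through 36.8 to 15848 CPM in the double-positive cells and from 13.2 through 25.1 to 15433.5 CPM in the Gzmb-only cells. It was present in 6 of 14 (42.9%, 17.7 to 71.1) and 6 of 46 cells (13%, 4.94 to 26.3), against 25 of 28 Mrgprb1-only and 91 of 94 mature cells. The log2 ratio was 0.91, with much of each pool in 1 cell. It was 0.04 without BMCP 22, which held 25316 of the 50570 double-positive reads, 1.54 without BMCP 45, which held 30135 of the 80335 Gzmb-only reads, and 0.66 without both. Over 9 alternative scalings, summaries and subsets of the cells it ran from 0.59 to 1.84. Mcpt4 belongs to a list of 10 genes that earlier results on these cells had linked to the late side. Only 5 of the 10 reached 5 CPM in either pool. Of these 5, 1 was at least 2-fold higher and 2 at least 2-fold lower, beside 19% and 37.4% of all genes. The median log2 ratio of the 5 genes, 0.91, was -1.37 without the highest cell of each pool, so the list gave no stable direction. A double-positive cell had 0 to 2 of the late genes present and 8 of 14 had none, while 35 of 46 Gzmb-only cells had none and the other 11 had 1.

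Cma1, Mcpt4, Mcpt8, Ctsg and Gzmb lie in 1 cluster of protease genes on chromosome 14, between 55941451 and 56262260 on GRCm38, with Mcpt4 at 56059629-56062313, Mcpt8 at 56082166-56085273 and Gzmb at 56258838-56262260. Among these neighbours Mcpt8 had a lower pooled level in the double-positive cells, and Cma1, Mcpt4 and Ctsg had higher ones. The log2 ratios were 0.45 for Cma1, 0.91 for Mcpt4, with the limits given above, and 0.41 for Ctsg. Gzmb chose the cells. The 250 bases before the annotated start of Mcpt8, Gzmb and Mcpt4, and of Mrgprb2, Mrgprx2 and Prss34 from the genes with larger shares, are shown so that their start regions can be compared. They come from RefSeq on GRCm38.p6 and read 5′ to 3′ on the strand of the gene: chr14:56085198-56085447 for Mcpt8, chr14:56262335-56262584 for Gzmb, chr14:56062311-56062560 for Mcpt4, chr7:48558087-48558336 for Mrgprb2 and chr7:48499271-48499520 for Mrgprx2, all on the minus strand, and chr17:25298144-25298393 for Prss34 on the plus strand. The gene spans above come from GENCODE, whose starts lie 76 bases from those of RefSeq for Mcpt8, 74 for Gzmb, 51 for Mrgprx2 and 3 for Mcpt4. The last bases of the Mcpt8, Mrgprx2 and Mcpt4 windows therefore lie inside the GENCODE genes. The Gzmb window ends upstream of the GENCODE start. Capitals mark GATAA on either strand (TTATC on the other), the core bound by GATA factors:
Mcpt8: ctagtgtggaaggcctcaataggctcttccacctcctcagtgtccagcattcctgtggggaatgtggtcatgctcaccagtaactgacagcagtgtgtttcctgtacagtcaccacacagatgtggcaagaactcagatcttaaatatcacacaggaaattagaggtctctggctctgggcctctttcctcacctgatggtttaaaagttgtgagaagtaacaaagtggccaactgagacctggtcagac
Gzmb: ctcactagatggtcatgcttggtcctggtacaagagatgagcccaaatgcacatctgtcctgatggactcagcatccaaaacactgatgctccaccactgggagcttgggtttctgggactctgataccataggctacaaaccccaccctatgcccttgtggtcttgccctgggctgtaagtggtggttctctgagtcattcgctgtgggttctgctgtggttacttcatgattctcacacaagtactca
Mcpt4: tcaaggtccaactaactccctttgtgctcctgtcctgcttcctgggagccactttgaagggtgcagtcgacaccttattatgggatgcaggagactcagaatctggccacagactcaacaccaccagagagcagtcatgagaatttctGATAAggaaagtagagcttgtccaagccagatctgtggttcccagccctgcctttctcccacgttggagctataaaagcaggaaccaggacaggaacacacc
Mrgprb2: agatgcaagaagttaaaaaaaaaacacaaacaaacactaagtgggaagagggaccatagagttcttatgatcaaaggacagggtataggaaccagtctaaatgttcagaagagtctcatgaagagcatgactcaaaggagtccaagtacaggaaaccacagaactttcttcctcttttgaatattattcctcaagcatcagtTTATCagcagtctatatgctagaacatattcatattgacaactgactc
Mrgprx2: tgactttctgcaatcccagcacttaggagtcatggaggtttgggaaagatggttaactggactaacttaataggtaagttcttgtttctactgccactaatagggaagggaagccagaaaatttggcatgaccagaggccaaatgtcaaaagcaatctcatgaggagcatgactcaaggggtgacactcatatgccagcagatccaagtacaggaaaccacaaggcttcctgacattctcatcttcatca
Prss34: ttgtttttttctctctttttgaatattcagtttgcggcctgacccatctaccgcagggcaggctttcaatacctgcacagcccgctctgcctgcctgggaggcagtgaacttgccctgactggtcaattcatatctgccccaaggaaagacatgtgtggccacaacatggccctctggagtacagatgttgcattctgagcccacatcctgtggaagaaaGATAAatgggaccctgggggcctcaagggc
Mcpt4, Mrgprb2 and Prss34 each had 1 match, starting 102, 48 and 30 bases before the start, and Mcpt8, Gzmb and Mrgprx2 had none in this window. Of the 16 starts read for 15 genes, 5 had a match, the other two being Cma1 and Cpa3. Pla2g7 and both starts of Tph1, genes also present in larger shares of the double-positive cells, had none. Of 32851 promoters of this length, 22.6% had a match. TGTGGT, a core bound by RUNX factors (ACCACA on the other strand), matched at 2 places in Mcpt8 and Gzmb, 1 in Mcpt4, Mrgprb2 and Mrgprx2 and 0 in Prss34, beside 14% of promoters with a match. A match describes letters only. The transcript of the GATA factor Gata2 itself was present in 14 of 14 and 44 of 46 cells, at 1952 and 1490 CPM pooled, and Runx1 in 3 of 14 and 18 of 46 cells.

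Among the Mrgpr receptors, 5 of 20 genes other than Mrgprb1 reached 5 CPM in either pool, with a median log2 ratio of 1.25 and 3 higher and 1 lower by at least 2-fold, beside 19% and 37.4% of all genes. Mrgprx2 ranged from 0.573 through 465 to 1261 CPM in the double-positive and from 0 through 1.10 to 1614 CPM in the Gzmb-only cells. It was present in 9 of 14 (64.3%, 35.1 to 87.2) and 9 of 46 cells (19.6%, 9.36 to 33.9), in 23 of 28 Mrgprb1-only and in 55 of 94 mature cells. All 9 Gzmb-only cells with Mrgprx2 also had Mrgprb2. Mrgpre was present in 4 of 14 and 8 of 46 cells, and its log2 ratio of 2.28 became -2.80 among cells numbered 49 to 95. Mrgpra4 and Mrgprb13 were each present in 1 double-positive cell, with log2 ratios of 1.84 and -1.22. The 2 ratios were 3.95 and -4.75 without the highest cell of each pool. Among cells numbered 49 to 95 both changed sign, to -4.93 and 5.86. Mrgprb3, Mrgprb4, Mrgprb5, Mrgprb8 and Mrgprd, among others, had 0 reads or nearly so in both pools.

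Most genes of the IgE receptor signalling list differed by less than 2-fold. Over 13 genes the median log2 ratio was -0.06, with 0 higher and 3 lower by at least 2-fold, against 19% and 37.4% of all genes. Fcer1g, the signalling subunit of FcεRI, was present in 14 of 14 and 46 of 46 cells at 3178 and 3361 CPM, and the adaptor Lat2 in 14 of 14 and 44 of 46 at 2260 and 2228 CPM. The receptor list had a median of -0.05 over 18 genes, with 1 higher and 2 lower beside the same shares. Il1rl1, the receptor of interleukin-33, was present in 12 of 14 and 35 of 46 cells, and Cd300a, an inhibitory receptor, in 5 of 14 and 30 of 46.

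Of 11 integrin genes above the filter, 1 was at least 2-fold higher and 6 at least 2-fold lower, where 19% and 37.4% of all genes were, with a median of -1.72. Besides Itga4, the lower genes were found in at most 4 of 46 Gzmb-only cells each. Itgb2 and Itga2b were present in like shares, 8 of 14 and 28 of 46 cells for Itgb2 and 8 of 14 and 26 of 46 for Itga2b. The Itgb7 ratio of -0.67 was 0.50 among cells numbered 49 to 95. Among 20 transcription factor genes the median was -0.38, close to that of all genes, with 0 higher and 6 lower by the same measure. Lmo4, a LIM-domain cofactor, was present in 3 of 14 and 26 of 46 cells (log2 ratio -1.91), and Runx1 had a ratio of -1.44.

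Markers of related lineages were counted next. The basophil list, which holds Mcpt8 and Prss34, had a median of -0.90 over 7 genes. Of the 7, 1 was at least 2-fold higher and 3 at least 2-fold lower, beside 19% and 37.4% of all genes. In this list Ccr2, a chemokine receptor, had 0 reads in the double-positive cells and 115 CPM in the Gzmb-only pool, from 8 of 46 cells. Cd200r3 was higher, with a log2 ratio of 0.46 (0.29 to 1.61 over the 9 alternatives). The progenitor list had a median of -0.54 over 5 genes, with 0 at least 2-fold higher and 2 lower, beside the same shares. Cd34 was present in 6 of 14 and 27 of 46 cells, and Meis1, a homeobox factor, in 0 of 14 and 13 of 46. Myb of this list was higher, with a log2 ratio of 0.98 (0.63 to 2.16 over the 9 alternatives). The 10 macrophage and 6 erythroid markers had 0 reads in both sets. Of the natural killer markers, 8 of 8 were at 0 in the double-positive and 7 of 8 in the Gzmb-only cells, with sums of 0 and 2.08 CPM pooled. Of 6 neutrophil markers, 6 and 5 were at 0. The 8 B cell markers summed to 68 and 333 CPM, with 2 and 1 of them at 0, and the highest cells had 623 and 7443 CPM. The 7 T cell markers summed to 191 and 28 CPM, with 5 and 4 at 0, and the double-positive sum was almost all Cd4 from 2 cells, with up to 1569.5 CPM in a cell. The 5 eosinophil markers summed to 0.0523 and 33.3 CPM, with 4 and 3 at 0. Their part in the differences above was not tested.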

How the data were processed

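Single sorted cells from the mouse peritoneal cavity were measured by RNA sequencing. Per the labels' protocols, oligo-dT primed reverse transcription of poly(A) RNA, with ERCC spike-ins, in 2 plates of 96 wells was followed by 23 PCR cycles and sequencing of 50 bp single-end reads, with no molecular identifiers. The authors deposited raw read counts per gene and cell. The submitters' processing notes name GSNAP 2015-09-29, HTSeq 0.5.3p3 and mm10, while the annotation release and strand setting are not given in the sources used here. The summary row of multiply aligned reads held 0, so members of families of similar sequence (Mrgpr, tryptases, Mcpt) and overlapping genes are uncertain. Rows that name no gene stayed out of totals: in the double-positive cells 16.3% of reads had no feature, 3.19% were ambiguous and 13.8% were not aligned, against 17.9%, 3.33% and 15.7% in the Gzmb-only cells.

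Symbols and coordinates on GRCm38 matched 45143 of 46078 gene rows (98.0%), and promoters of 15 of 18 genes asked for matched by symbol. Counts were summed over the cells of a set and scaled to CPM. Ratios are log2 of (pooled CPM + 1) between sets for 10094 genes with at least 5 CPM in either set, Gzmb and Mrgprb1 left out. A difference of 2-fold, or of 30 points in the share of cells at 100 CPM, was counted. Total reads per cell ran from 344022 to 2091665 in the 60 cells. Exact Poisson and Clopper-Pearson intervals are at 95%. No doublet caller was run, as wells received sorted single cells. Scripts were tested on simulated counts in which cells of a set differed only by depth and counting error. That checks the calculation, not how the ratios behave in these cells. Python 3.11.15 was used, and edgeR 4.0.16 gave TMM factors (0.94 and 1.07) as an alternative scaling only.

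The members, the 24 gene lists and the rules were chosen with earlier results of these data known. Named genes were the 12 largest ratios each way among genes with at least 50 CPM pooled and a median of at least 10 CPM in the higher set, whose direction held without that set's highest cell, all genes of the early, late, granule, Mrgpr and integrin lists above the filter, and the 3 most abundant of each other list; 1 gene that met the rule is not reported here. The ranking by share of cells, the genes named from lists beyond these, the counts within cells with Mrgprb2 and the level of 1000 CPM were chosen after the values were seen. Alternatives were other thresholds on Gzmb and Mrgprb1, scalings, summaries, filters and pseudocounts, and leaving out cells. A threshold of 50 CPM on Gzmb or on Mrgprb1 took the same 14 and 46 cells, so its results could not differ.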

Additional observations from a re-analysis of the deposited data

How the results depend on the processing

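Labels name the cells by number and tie no number to a mouse, well or batch. No paired analysis was possible because equal numbers in the 2 sorted groups only name cells, and the double-positive and Gzmb-only sets share none.

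A value was held as unmoved within 0.25 (log2), 2 points, 100 genes or 1.5 times a count, tolerances set by choice. The early genes' median log2 ratio of -1.72 was negative under every alternative run: -1.44 with ERCC reads as the scale (-1.83 without BMCP 55), -2.35 as a difference of mean log2(CPM + 1), -2.32 without the highest cell of each pool, and, in alternatives chosen after seeing the data, -2.33 and -2.10 among cells numbered 1 to 48 and 49 to 95. Leaving out each double-positive cell gave -1.92 to -1.58. The late genes' median of 0.91 was 0.58 with Gzmb at 1000 CPM, 1.19 with ERCC reads (0.80 without BMCP 55), 0.39 as a difference of means, 0.051 without a filter, -1.37 without the highest cells, 1.99 among cells 1 to 48 and -3.09 among cells 49 to 95. It ranged from -2.47 to 1.05 over single cells left out.

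The 1914 higher and 3776 lower genes became 848 and 1322 as differences of means, 884 and 4923 without the highest cells, which takes 1 of 14 and 1 of 46 cells, and 85 and 141 among 1332 genes with a median of at least 10 CPM in a set (chosen after seeing the data). With at least 20 CPM, 2252 were lower. The higher genes' share of all calls was 33.6%, against 40.3% with ERCC reads but 31.4% with ERCC reads without BMCP 55 (chosen after seeing the data), 39.1% by means and 15.2% without the highest cells. The median of all genes was -0.20 with TMM, -0.21 with median-of-ratios and -0.11 with ERCC scaling, which became -0.47 without BMCP 55, beside -0.38 as reported. The log2 ratio of median reads per ERCC read was -0.10 but 0.28 between pooled sums, and -0.09 between pooled sums without BMCP 55. The granule difference of 5.87 points ranged from 5.62 to 6.38 and the difference of -183.5 genes from -247 to -120 over single cells left out. Of 113 named genes, 77 kept their sign in all 9 settings and 36 did not. The number of cells, 14 and 46, limits every share.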

Other observations

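Of 21 cytokine genes, 12 reached 5 CPM in a pool, with a median log2 ratio of -1.74. At least 2-fold higher were 0 and lower 7 of them, beside 19% and 37.4% of all genes, and 1, Ccl9, had a share of cells at least 30 points smaller. Ccl9, a CC chemokine, was present in 0 of 14 double-positive and 14 of 46 Gzmb-only cells, at 0.209 and 383 CPM pooled, and its highest value in a double-positive cell was 0.756 CPM. Il6 was present in 2 of 14 and 17 of 46 cells, Ccl4 in 3 of 14 and 18 of 46, and Ccl3 in 3 of 14 and 14 of 46. The monocyte chemokine Ccl2 was present in 12 of 14 and 34 of 46 cells. Ccl3, Ccl4 and Ccl9 did not exceed 2.07 CPM in any Mrgprb1-only or mature cell.

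Jun, an immediate early factor, had 957 and 463 CPM pooled and was present in 11 of 14 and 24 of 46 cells, and Junb in 10 of 14 and 27 of 46. The immediate early list had a median of 0.12 over 10 genes, which was -0.28 without the highest cell of each pool. Of the 10, 1 was at least 2-fold higher and 2 at least 2-fold lower, beside 19% and 37.4% of all genes. Ier2 had a log2 ratio of 0.10 that changed sign in 2 of 9 settings. Eicosanoid genes had a median of 1.46 over 6 genes, with 4 higher by at least 2-fold, beside 19% of all genes. Of these, Pla2g4a, the cytosolic phospholipase A2, was present in 4 of 14 and 2 of 46 cells, and Ptgs1, a cyclooxygenase, in 2 of 14 and 0 of 46. The lipoxygenase Alox5 was present in 14 of 14 and 43 of 46 cells.

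S phase genes had a median of -1.05 over 13 genes and G2/M genes -3.11 over 10 genes. The G2/M median was -0.23 without the highest cell of each pool. Most G2/M genes were present in 1 Gzmb-only cell or none, and Kif23 in 10 of 14 double-positive and 18 of 46 Gzmb-only cells. The pooled log2 ratio of Kif23 was -0.92, but it was 1.78 as a difference of mean log2(CPM + 1). Mucosal mast cell genes summed to 26.3 and 16.1 CPM, and the megakaryocyte list to 592 and 491 CPM, almost all Itga2b.

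The 5 BMCPs with neither gene at 100 CPM had granule shares of 0.113 to 32.4% of reads, and their pooled B cell markers summed to 48921 CPM.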
